A study of Rattus norvegicus with 4 samples.

Results

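The genes described here encode the mitotic machinery, namely the cyclins and kinases that drive entry into mitosis, the proteins of the kinetochore and spindle, and the enzymes that separate the chromosomes and divide the cell. The members are a list of 40 rat gene symbols, joined by their role in mitosis and not by a threshold on a measured value. A probe named through its transcript accession was found for 34 of the 40, out of 16520 named genes with a value on every array. These 34 genes were read by 51 probes, 21 genes by a single probe and 13 by several. No probe could be matched to Cdc25c, Plk4, Cenpe, Kif4a, Anln or Top2a, so no level is given for these 6 genes.

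RNA came from NR8383, a macrophage line that was started from cells washed out of a normal rat lung and that divides in culture. The cells carried the label of 20 passages. Zinc iron oxide, a ZnFe2O4 particle coded NRCWE021, was present for 4 h at 17 µg/mL in every culture. The 4 biological replicates of this single group were each hybridised to a 1-colour (Cy3) Agilent rat expression array. The study is described as a comparison with unexposed cells, but control arrays were not analysed here, and the values hold no measure of a response to the particle. All values are those of 1 cell line in bulk culture, where fewer cells of a kind and less RNA per cell cannot be told apart.

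Most cells in a growing culture are not in mitosis, and mitotic genes are transcribed mainly in late S phase, G2 and mitosis and then shut down. CDK1 with cyclin A or B starts mitosis, kinases of the Polo and Aurora families build the spindle, and the spindle checkpoint holds the anaphase-promoting complex (APC/C) in check until every kinetochore is attached. Many promoters of this programme carry CCAAT boxes, which bind NF-Y, and a cell cycle genes homology region (CHR), which binds MuvB complexes. These complexes repress the genes in resting cells as DREAM and activate them in G2 together with B-MYB and FOXM1.

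The promoter letters were compared first, since they do not depend on the arrays. RefSeq promoters of the GRCr8 build, from 250 bases before to 50 bases after the annotated start, matched 33 of the 40 symbols, all but Ccna2, Wee1, Foxm1, Aurkb, Incenp, Ube2c and Tpx2. Stretches upstream of the start from 8 of them are printed here 5′ to 3′ because they show how the elements are arranged, with each match in capitals. The motifs searched on both strands were TTTGAA and TTCGAA, taken here as the CHR, and CCAAT. No other form of the CHR was searched. ATTGG and TTCAAA in capitals are thus matches on the other strand. The stretches are Ccnb1 (chr2:33655245-33655345, minus strand), Ccnb2 (chr8:79981689-79981808, minus strand), Cdk1 (chr20:19265193-19265292, plus strand), Cdc20 (chr5:137255830-137255909, minus strand), Pttg1 (chr10:28406337-28406436, minus strand), Prc1 (chr1:143659401-143659480, plus strand), Kif23 (chr8:71320635-71320694, minus strand) and Mki67 (chr1:199952674-199952793, minus strand), all of GRCr8.
Ccnb1: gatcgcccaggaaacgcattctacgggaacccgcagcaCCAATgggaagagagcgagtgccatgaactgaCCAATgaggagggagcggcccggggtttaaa
Ccnb2: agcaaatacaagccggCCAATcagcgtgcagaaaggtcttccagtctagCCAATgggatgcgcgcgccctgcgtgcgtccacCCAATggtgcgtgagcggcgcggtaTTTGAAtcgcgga
Cdk1: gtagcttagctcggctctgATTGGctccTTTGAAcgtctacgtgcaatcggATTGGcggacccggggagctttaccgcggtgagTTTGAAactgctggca
Cdc20: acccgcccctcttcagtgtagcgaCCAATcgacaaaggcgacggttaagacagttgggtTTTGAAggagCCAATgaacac
Pttg1: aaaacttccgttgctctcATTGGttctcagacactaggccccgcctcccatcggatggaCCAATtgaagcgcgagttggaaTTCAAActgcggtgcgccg
Prc1: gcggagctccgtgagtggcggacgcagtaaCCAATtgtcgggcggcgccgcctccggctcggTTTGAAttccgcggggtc
Kif23: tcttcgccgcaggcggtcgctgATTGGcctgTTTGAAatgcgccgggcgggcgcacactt
Mki67: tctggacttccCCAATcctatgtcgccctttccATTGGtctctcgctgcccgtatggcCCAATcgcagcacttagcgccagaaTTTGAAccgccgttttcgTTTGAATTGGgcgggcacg

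In Ccnb2, Prc1 and Pttg1 a CHR match lies downstream of the CCAAT boxes shown. In Cdk1 and Cdc20 the elements alternate. In Kif23 a CCAAT box on the other strand is closely followed by TTTGAA, and in Mki67 a TTTGAA match and a CCAAT match on the other strand share 1 base. The stretch of Ccnb1 shows 2 CCAAT boxes, and the whole window of this gene holds neither TTTGAA nor TTCGAA. Whether it holds another form of the CHR was not tested.

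At least 1 CHR match was found in 25 of the 33 promoters (75.8%), against 21.0% of 27457 genes in the promoter table and 13.9% of 5805 genes that were well above background on all 4 arrays. CCAAT was found in 24 of 33 (72.7%), against 39.6% and 40.5%. Both elements stood in the same window in 19 of 33 promoters (57.6%), against 9.15% of all genes and 6.39% of the detected genes. Among 94 promoters of other cell cycle genes, 35 held a CHR match (37.2%), and among 16 promoters of germline genes 2 did. The windows of Aurka, Bub1 and Kif2c held none of these letters. Over the 33 genes, 26 of 32 CHR matches and 30 of 54 CCAAT matches began no more than 100 bases before the start or after it. That zone is a large part of the window, and the same share was not counted over all promoters. All of these are counts of letters and not of bound sites.

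**Figure D1:**
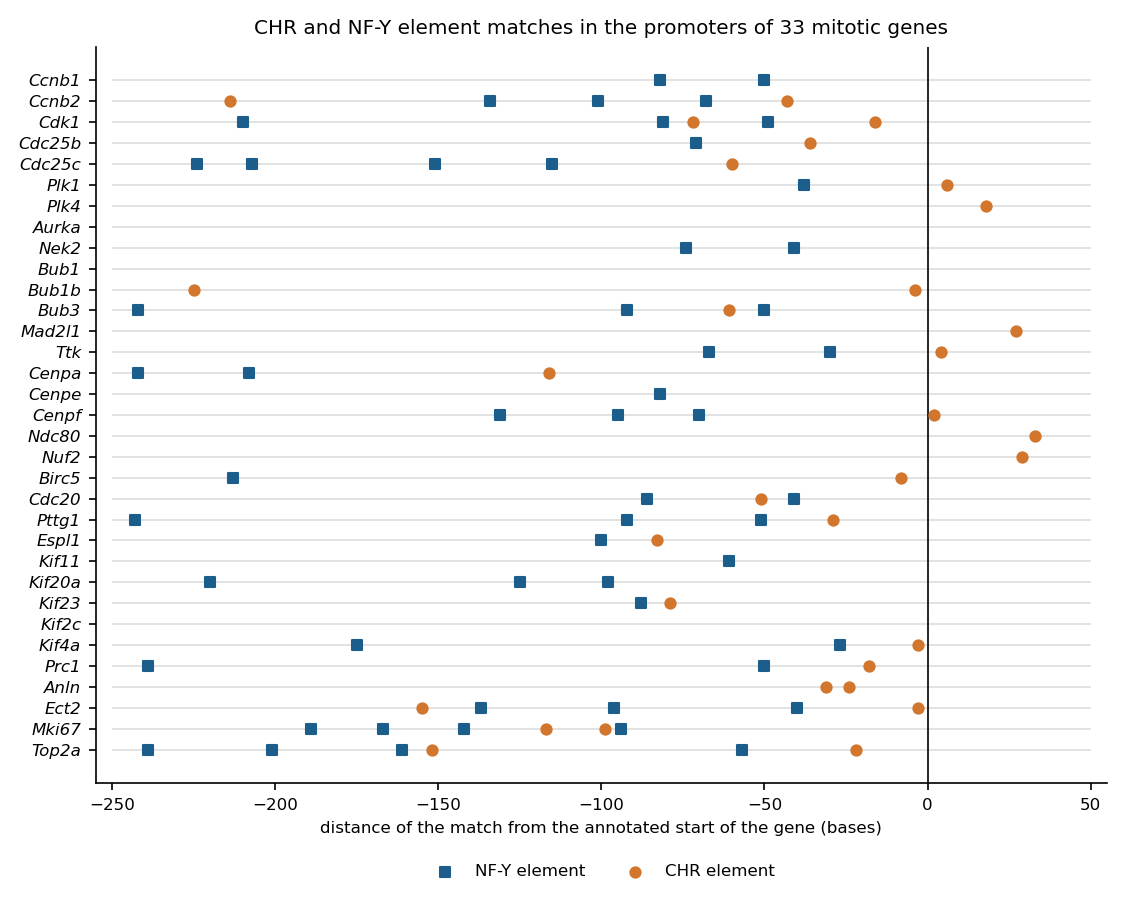
Positions of CHR and NF-Y element (CCAAT) matches on either strand in the promoter windows of 33 mitotic genes, in bases from the annotated start (vertical line), 1 row per gene. In the last 100 bases before the start or downstream of it lie 26 of 32 CHR matches and 30 of 54 NF-Y matches. The same share was not counted over all promoters.

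The arrays differed in quality, which decides how far each value can be read. By the scanner software's flag, 47.0%, 89.5%, 70.5% and 41.6% of gene spots on replicates 1 to 4 were well above background. The dimmest of the spike-in control RNAs, which do not come from the cells, was well above background on 0 of 35 spots on replicates 1 and 4 and on 35 and 34 of 35 spots on replicates 2 and 3. Detection is therefore given first for replicates 1 and 4. The macrophage label was checked on fixed markers, of which 11 of 13 were well above background on replicates 1 and 4, with Cd68 at a level of 2.68 ± 0.44 and Adgre1 and Marco as the exceptions. Markers of epithelium were at 0 of 7, of fibroblasts at 1 of 5 (Dcn) and of lymphocytes at 1 of 5 (Cd4) on the same arrays.

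Every mitotic gene that could be measured was detected in the exposed macrophages. On both replicate 1 and replicate 4, 34 of 34 genes had a probe well above background, against 45.9% of all 16520 named genes (52.2% on replicate 1 and 46.3% on replicate 4, each taken alone). On all 4 arrays 32 of 34 did, against 42.4% of all genes, and the exceptions were Ndc80 and Espl1, which were not well above background on replicate 3. When a gene had to exceed the dimmest spike-in probe of the same array by 3 SD, 34 of 34 passed on replicates 1 and 4, where 52.3% of all genes did. On all 4 arrays 17 of 34 passed this threshold, where 18.9% of all genes did.

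Other genes of the cell cycle were counted in the same way. Of 100 measured genes in 6 further lists, 86 were well above background on replicates 1 and 4. All 14 cohesin and condensin genes were, among them the cohesin subunits Smc1a, Smc3 and Rad21, with mean levels of -1.01, -2.36 and -2.37. For the G1/S and replication list the count was 26 of 28, with the D-type cyclins Ccnd1, Ccnd2 and Ccnd3 at 0.02, -0.71 and -2.79. The exceptions were Cdk6 and the origin protein Orc1, which missed the flag on replicate 4 alone. Of 16 APC/C genes 15 were detected, with the subunits Anapc1, Anapc2 and Anapc4 at -2.26, 0.03 and -0.98, and the exception was Fbxo5, which encodes the APC/C inhibitor EMI1.

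Of 19 further kinetochore and checkpoint genes 14 were detected on both replicates 1 and 4, with 17 on replicate 1 and 14 on replicate 4. Cenpc, Cenpi and Cenpk of the inner kinetochore, the outer scaffold Knl1 and the passenger protein Cdca8 all missed the flag on replicate 4. Cenpc missed it there alone. In the list of MuvB, DREAM and NF-Y genes the count was 8 of 11, with the MuvB genes Lin37, Lin54 and Rbbp4 at -1.19, -1.69 and 1.01. The NF-Y subunits Nfya and Nfyb missed the flag on at least 1 of these arrays, and Rbl1, which encodes the pocket protein p107, had no flag on any array. Of 12 CDK inhibitors and genes of quiescence 9 were detected, with Cdkn1a (p21) at 0.90 ± 0.48, Cdkn1b (p27) at -2.08 ± 0.40 and Cdkn1c, Cdkn2a and Btg2 as the exceptions.

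Relatives of the mitotic genes that act in germ cells were not detected on the same arrays. None of 14 measured germline and meiotic genes was well above background on replicate 1 or on replicate 4, whereas 13 were on replicate 2 and 6 on replicate 3. Ccna1, the germline relative of Ccna2, had processed signals of 3.49 and 3.77 intensity units on replicates 1 and 4, and its flag was set on replicates 2 and 3. The same held for the meiotic cohesin gene Stag3, with signals of 3.13 and 3.20 on replicates 1 and 4. The synaptonemal complex genes Sycp1 and Sycp3 were flagged on replicate 2 alone. On replicate 2, 91.5% of all named genes were flagged, so a flag there says little about a gene.

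**Figure D2:**
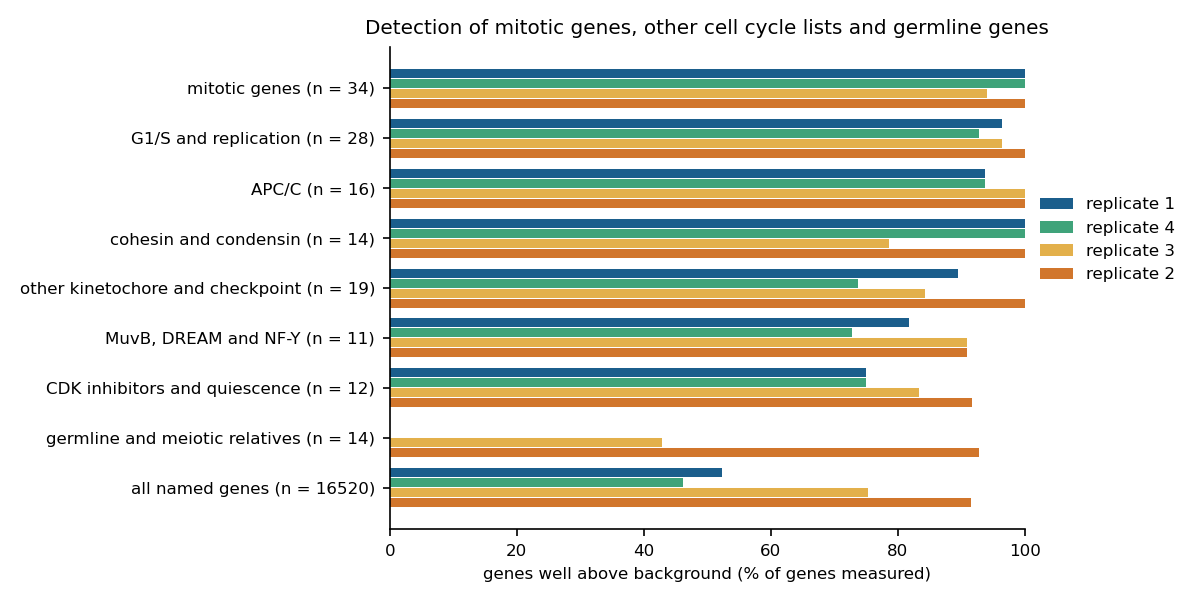
Share of measured genes well above background on each array, in percent, for the mitotic genes, 6 other cell cycle lists, the germline list and all 16520 named genes. The bars of the mitotic genes stand at 34 of 34 on replicates 1, 2 and 4, and the germline bars are at 0 on replicates 1 and 4 but not on replicates 2 and 3.

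Levels are log2 processed signals relative to the 75th percentile, on the same array, of the probes well above background on all 4 arrays. Each gene is given by the probe with the highest mean signal, with the mean ± SD of n = 4 arrays. Levels of different probes are set against each other only to sort genes or probes by brightness. Cyclins and the controls of CDK1 come first. Ccnb1, the cyclin B1 that brings CDK1 into mitosis, had levels of 0.54, 0.18, 0.37 and 0.38 on replicates 1 to 4 (0.37 ± 0.15), which lie within 0.36 log2 units of each other. Ccnb2, which encodes cyclin B2, had levels of 1.81, 1.25, 1.16 and 1.39 (1.40 ± 0.29), with replicate 1 the highest. Ccna2, the cyclin A2 of S phase and G2, had levels of -0.14, -0.40, -0.58 and 0.25 (-0.22 ± 0.36), with replicate 4 the highest. Cdk1 itself had 10 spots per array before outlier spots were left out. Its levels were 2.60, 1.86, 2.43 and 2.76 (2.41 ± 0.39), and replicate 2 was the low array.

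The phosphatase gene Cdc25b, whose product activates CDK1, had a level of -1.14 ± 0.15, lowest on replicate 4 (-1.35). Wee1, the kinase that opposes it, had levels of -2.52, -3.56, -3.30 and -2.10 (-2.87 ± 0.68), higher on replicates 1 and 4 than on the other arrays. Foxm1, the transcription factor of the G2 programme, had levels of -0.70, -0.99, -0.61 and -0.88 (-0.79 ± 0.17). All 7 measured genes of this role were well above background on every array.

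Among the mitotic kinases, Plk1, the Polo kinase of spindle assembly, had levels of 1.37, 0.59, 1.46 and 1.33 (1.19 ± 0.40), with replicate 2 apart from the other arrays. Aurka, the Aurora kinase of the spindle poles, had levels from -0.04 to 0.34 (0.20 ± 0.18). Aurkb, its relative at the centromere, had levels of -2.07, -0.41, -0.99 and -2.27 (-1.44 ± 0.89), so that replicates 2 and 3 were both higher than replicates 1 and 4. Nek2, a kinase of centrosome separation, had levels from -1.01 to -0.41 (-0.66 ± 0.27).

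Spindle checkpoint genes were all detected on every array. Bub3, with 10 spots per array before outlier spots were left out, had levels of 1.46, 0.92, 1.54 and 1.57 (1.37 ± 0.31). The checkpoint kinase Bub1 had a level of -2.12 ± 0.45, its relative Bub1b, which encodes BUBR1, -1.72 ± 0.43, and Ttk, the kinase that starts the checkpoint, -1.34 ± 0.31. Mad2l1, whose product binds and inhibits CDC20, had levels of -1.26, -0.52, -1.68 and -0.98 (-1.11 ± 0.49).

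All 4 measured kinetochore and centromere genes were detected on replicates 1 and 4. Cenpf, a large protein of the outer kinetochore, had levels of -6.31, -1.60, -2.48 and -5.18 (-3.89 ± 2.21), low on replicates 1 and 4 and high on replicates 2 and 3, without overlap. Its SD was 0.69 with scaling on all probes and 0.47 with quantile normalization. On replicates 1 and 4 its processed signal was 21.1 and 23.2 intensity units, still well above background by the flag. Ndc80, which binds microtubules, had levels of -3.33, -1.53, -4.09 and -4.12 (-3.26 ± 1.21) and lost the flag on replicate 3. Of its further probes, the second was well above background on replicates 1 and 2 alone and the third on no array. Its partner Nuf2 had a level of -2.15 ± 0.40, and Cenpa, the histone H3 variant that marks centromeres, had levels of -2.69, -0.77, -1.86 and -2.76 (-2.02 ± 0.93).

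The chromosomal passenger gene Birc5, which encodes survivin, had levels of 0.73, 0.67, 0.62 and 0.46 (0.62 ± 0.12). Incenp, the scaffold of the same complex, had a level of -0.41 ± 0.37. Of the genes that end mitosis, Cdc20, the activator of the APC/C, had levels of -0.91, -0.55, -0.58 and -1.31 (-0.84 ± 0.35), and Ube2c, the ubiquitin-conjugating enzyme of the APC/C, had a level of 0.66 ± 0.33. Pttg1, which encodes securin, had levels of 1.64, 0.82, 1.52 and 1.45 (1.35 ± 0.37), with replicate 2 the low array. Espl1, the separase that securin holds inactive, had levels of -1.83, -2.09, -3.36 and -3.05 (-2.58 ± 0.74) and lost the flag on replicate 3. The second Espl1 probe was well above background on replicate 2 alone.

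The motors and spindle proteins were all detected on every array. Kif20a, a kinesin of the central spindle, had levels from 1.12 to 1.47 (1.27 ± 0.17), and Kif11, which pushes the spindle poles apart, from -3.19 to -2.64 (-2.95 ± 0.24). Kif23, a further central spindle motor, had levels of -1.65, -0.62, -1.52 and -1.70 (-1.37 ± 0.51), with replicate 2 high. Kif2c, which takes microtubules apart at centromeres, had levels of -2.97, 0.36, -0.95 and -3.33 (-1.72 ± 1.74), a range of 3.69 log2 units with replicates 2 and 3 above replicates 1 and 4. With scaling on the 75th percentile of all probes the order of the SDs turned, to 0.23 for Kif2c, 1.82 for Kif20a and 1.52 for Kif11. Tpx2, the activator of Aurora A, had a level of -1.69 ± 0.62, Prc1, which bundles microtubules, -1.46 ± 0.51, and Ect2, which sets the site of cell division, -2.31 ± 0.61. Mki67, the Ki-67 protein that coats mitotic chromosomes, had levels of -1.85, 0.36, -1.13 and -1.13 (-0.94 ± 0.93) by its brightest probe.

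**Figure D3:**
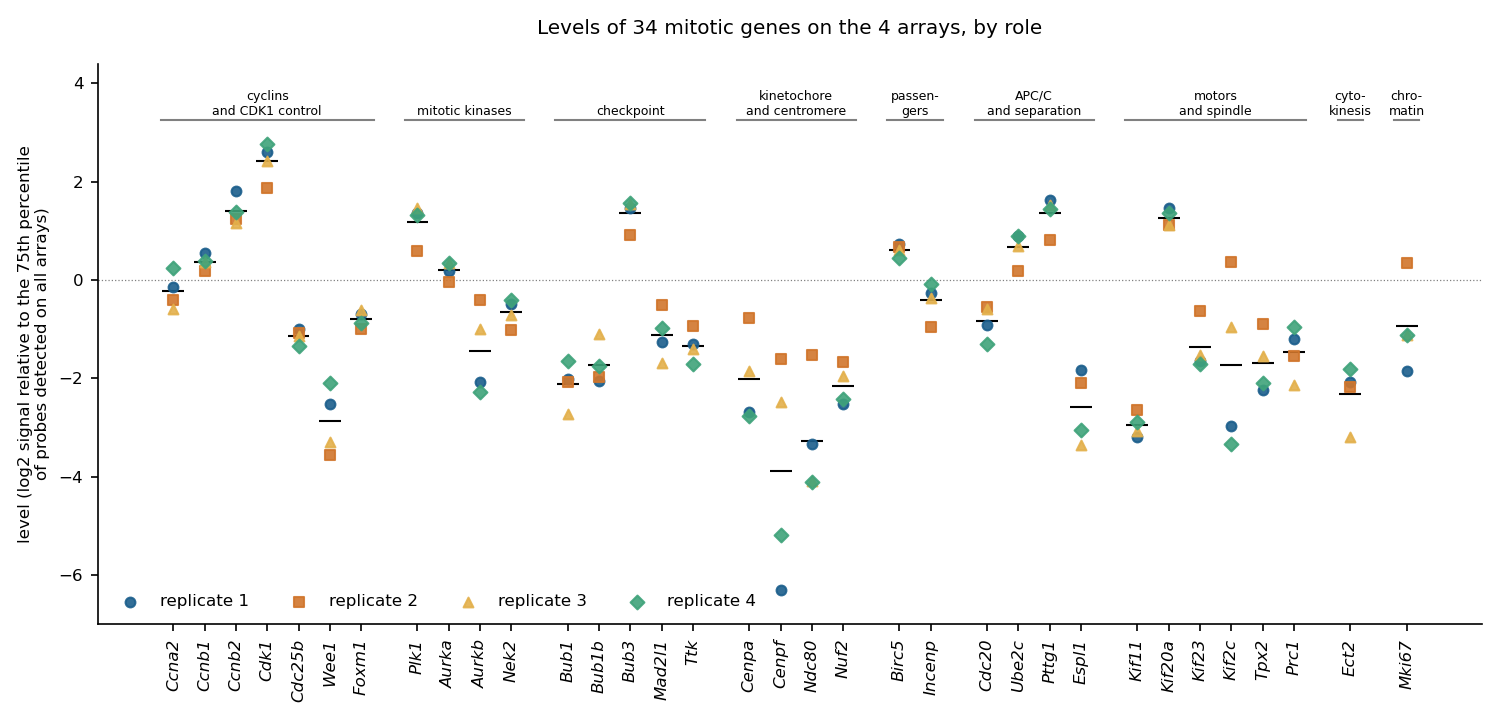
Levels of 34 mitotic genes, grouped by role, as log2 signal relative to the 75th percentile of probes detected on all arrays. Symbols are the 4 replicates and bars their mean. Replicate 2 (orange squares) lies at or below the other arrays for Cdk1, Plk1, Bub3 and Pttg1 and above them for Cenpf, Kif2c and Aurkb.

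The spread of the mitotic genes over the arrays was set beside that of all genes. The median SD over the 4 arrays was 0.38 log2 units for the 32 genes with a probe that passed the background flag on every array, and 0.43 for all 6902 such genes. It was larger with other scalings, at 1.73 against 1.55 for all genes when the arrays were scaled on the 75th percentile of all probes. Each gene's variance was set against limma's prior variance with a trend on signal in an F test. With Benjamini-Hochberg adjustment the test called 0 of the 32 genes and 0% of all 6902. With 4 arrays and 4.11 prior degrees of freedom, only a very large excess could be called, so this count says little about spread. The smallest unadjusted p was 0.0148 for Kif2c (adjusted p = 0.942, limma), and no further gene was under 0.05, where 4.51% of all genes were. With a robust prior 0 genes were called as well, and 2 of the 32 had an unadjusted p under 0.05, where 3.91% of all genes did.

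The arrays were also compared by range of signal. Differences between arrays are given from here on relative to the median difference of all 6902 genes, which for replicate 1 minus replicate 4 was -0.03 with the scaling used here and 0.59 when bright spike-in probes set the scale. For the 10 mitotic genes with a mean level above 0, replicate 2 was lower than replicate 1 in 10 of 10, by a median of 0.82 log2 units. The 10 genes include Ccnb1, Ccnb2, Cdk1, Plk1 and Birc5. In this range of signal 96.8% of all genes were lower on replicate 2. For the 7 mitotic genes with a mean level below -2, replicate 2 was higher in 4 of 7, where 86.2% of all genes in that range were higher. The median SD was 0.30 above 0, 0.43 from -2 to 0 and 0.61 below -2, against 0.34, 0.34 and 0.98 for all genes. With scaling on all probes the SDs of bright genes were the larger ones, at 1.78 for Ccnb1 and 2.02 for Cdk1 against 0.69 for Cenpf and 0.80 for Cenpa. Whether the quality of replicates 2 and 3 accounts for the spread of single genes was not tested.

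Different probes of the same gene could give different orders of the arrays. The brighter probe of Ccna2 varied from -0.58 to 0.25 over the arrays, while its dimmer probe had levels of -4.33, -1.57, -2.46 and -4.01, high on replicates 2 and 3. The dimmer probe of Nek2 had levels of -5.49, -1.67, -1.88 and -5.20, and that of Aurka had -3.85, -1.11, -2.64 and -3.63, whereas the brighter probes of the 2 genes varied less, from -1.01 to -0.41 and from -0.04 to 0.34. For Wee1 the probes went opposite ways, since the brighter was lowest on replicate 2 (-3.56) and the dimmer highest there (-1.87). Both probes of Ccnb2 were highest on replicate 1 and lowest on replicate 3, and the second had levels of -0.49, -0.89, -1.24 and -0.98. The second probe of Foxm1 had levels of -1.80, -2.23, -1.80 and -2.08, lowest on replicate 2 like the first.

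**Figure D4:**
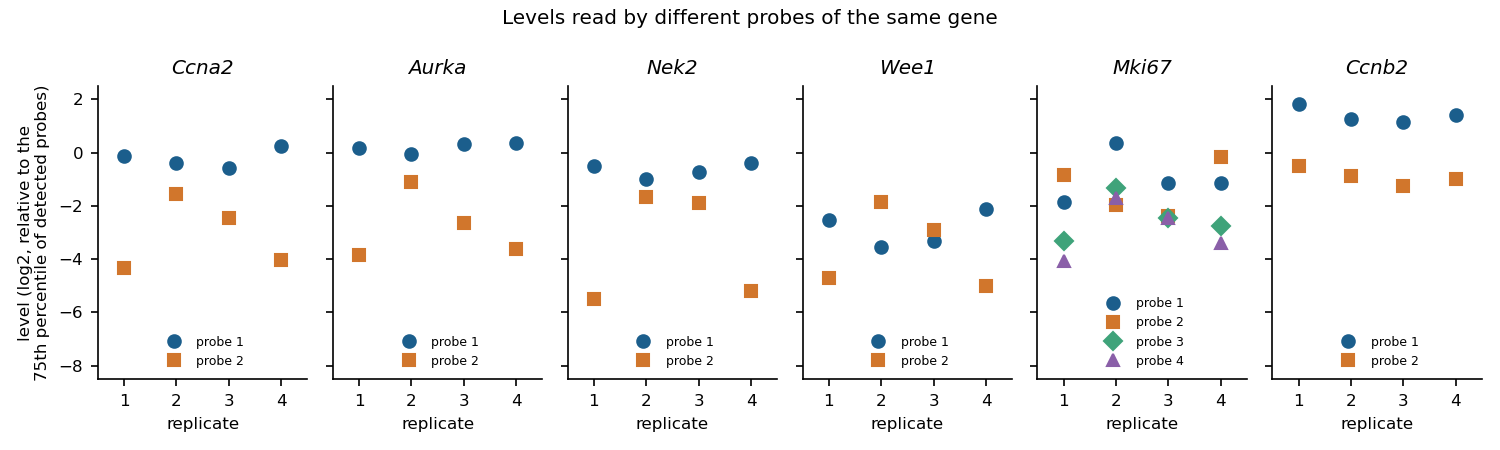
Levels read by each probe of 6 mitotic genes on the 4 arrays, as log2 signal relative to the 75th percentile of detected probes, with probe 1 the brightest. Dimmer probes of Ccna2, Aurka and Nek2 are higher on replicates 2 and 3, while the brighter probes of these genes are not.

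Replicates 1 and 4, on which the dimmest spike-in was not flagged, could be compared more closely. Of the 32 mitotic genes detected on all 4 arrays, 17 were lower and 15 higher on replicate 1. The share of all 6902 genes that were lower is fixed at 50% by the centring on their median. Before centring, 18 mitotic genes were lower and 14 higher, beside 3766 and 3136 of all genes. After centring, the median absolute difference of the 32 genes was 0.23 log2 units against 0.20 for all genes. Differences over 0.5 log2 units, a fold of 1.41, were found for 2 of 32 in the direction lower on replicate 1, against 6.72% of all genes, and for 0 in the other direction, against 6.39%. The 2 genes were Cenpf, with a difference of -1.10, and Mki67, with -0.69. Cenpf was read by 1 probe of 1 spot, at 21.1 and 23.2 intensity units on replicates 1 and 4. Its difference was -0.68 with quantile normalization. When only replicates 1 and 4 had to pass the flag, a filter chosen after seeing the data, 34 genes entered, with 17 lower and 17 higher. Then 2 were lower by over 0.5, against 7.70% of 7542 genes, and 2 were higher, against 7.27%, the latter being Espl1 (1.25) and Ndc80 (0.82). With the mean of all probes, Espl1 gave 0.60 and Ndc80 0.48.

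For Mki67 the difference was read in the same direction by all 4 of its probes, whose values for replicate 1 minus replicate 4 were -0.69, -0.63, -0.54 and -0.66. The second of these probes has 10 spots per array, and the SD of its spots lay between 0.099 and 0.258 on the 4 arrays. Among 60 genes with 4 or more probes well above background on replicates 1 and 4, 2 genes (3.33%), Mki67 and Atp5mk, had every probe lower on replicate 1 by over 0.5. With quantile normalization the brightest Mki67 probe gave -0.49 and with normexp background correction -0.54. On replicates 2 and 3 its probes disagreed. The brightest was highest on replicate 2 (0.36), while the probe with 10 spots had levels of -0.83, -1.98, -2.39 and -0.16 and was thus lower on replicates 2 and 3 than on replicates 1 and 4. Only replicates 1 and 4 are compared here, so the difference is a description of these samples.

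Further genes could be compared between probes on replicates 1 and 4. In 11 mitotic genes at least 2 probes were well above background on both arrays, and in 9 of the 11 all such probes differed in the same direction, where 58.6% of 1363 genes did. Ccnb2 was higher on replicate 1 by 0.45 and 0.52 with its probes, Foxm1 by 0.21 and 0.31, and Cenpa by 0.11 and 0.14. Ccna2 gave -0.35 and -0.29, Mad2l1 -0.24 and -0.33, Aurka -0.14 and -0.19, Nek2 -0.06 and -0.25 and Bub1b -0.26 and -0.89, all lower on replicate 1. Wee1 and Ube2c were the exceptions, with -0.38 and 0.33 for Wee1 and with 0.02 and -0.10 for Ube2c. Some of the second probes were dim on replicates 1 and 4, at 31.2 and 29.6 intensity units for Bub1b and 37.3 and 22.8 for Nek2. With normexp background correction the brightest probes of Aurka, Nek2 and Cenpa changed sign, to 0.09, 0.10 and -0.06. Between replicates 1 and 2 the probes went the same way in 4 of the 11 genes, where 59.4% of the 1363 genes did.

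By role, the checkpoint genes were lower on replicate 1 in 4 of 5, where the centring sets the share of all genes at 50%. Bub1 was at -0.34 and Ttk higher at 0.42. Bub3 (-0.08) changed sign with normexp background correction (0.09) and with outlier spots kept (0.08). The APC/C and securin genes detected on all arrays were higher on replicate 1 in 3 of 3, with Cdc20 at 0.43, Pttg1 at 0.22 and Ube2c at 0.02, but Ube2c turned to -0.03 with the mean of its probes. Cdk1 was at -0.13, and at 0.08 with normexp background correction, and Plk1 was at 0.08. Lower and higher genes numbered 3 and 4 for cyclins and CDK1 control and 2 and 2 for mitotic kinases. The numbers were 3 and 3 for motors and spindle, 2 and 1 for the kinetochore and 1 and 1 for passengers. Ect2 and Mki67, each alone in its role, were lower. Counts this small cannot show a difference between roles.

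**Figure D5:**
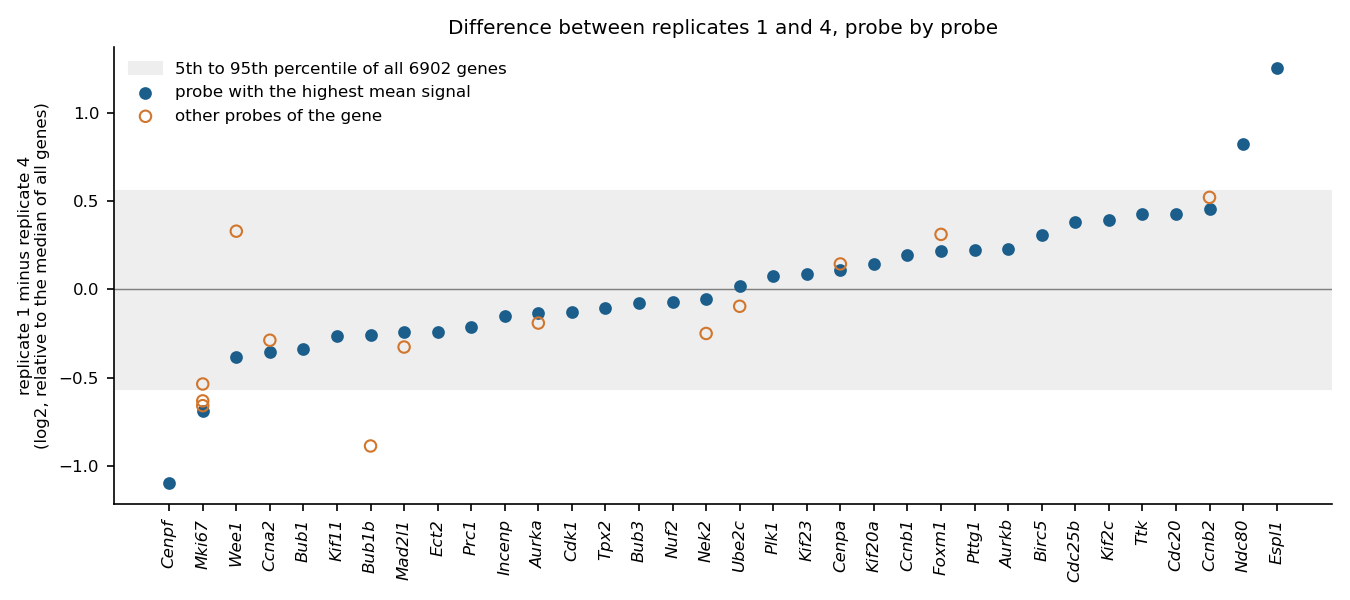
Replicate 1 minus replicate 4 for each probe of the 34 mitotic genes that was well above background on both arrays, as log2 difference relative to the median of all genes. Filled points are the brightest probe, open points the other probes, and the grey band spans -0.56 to 0.56, the 5th to 95th percentile of all 6902 genes. The 4 probes of Mki67 lie together between -0.69 and -0.54.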

How the data were processed

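The deposited intensity values were read from scans of 4 arrays on 1 slide with Agilent Feature Extraction 11.0.1.1, per the file headers, which record background subtraction and spatial detrending within an array and no normalization between arrays. The deposited value table equals the median spot intensity on all 62976 spots, with column medians of 54, 604.5, 219 and 46, so it is linear, uncentred and added nothing. Control spots and outlier spots were left out (832, 946, 1109 and 868 on replicates 1 to 4), and no gene spot was saturated. Log2 signals were averaged over the spots of a probe, and a probe counted as detected if more than 0.5 of its spots carried the flag. The scaling percentile was taken over 12899 probes detected on all 4 arrays, of 45385 with values. Accessions without versions named 21102 of 45598 probes through the RefSeq table of GRCr8, and 1 Prc1 probe had no usable spot. Array coordinates refer to an older rat build and were not used. Alternatives were other scalings, quantile normalization, normexp with an offset of 50, the mean of a gene's probes, other flags and leaving out each replicate. The variance test (limma 3.58.1, R 4.3.3) was also run on simulated data, and that outcome is not given here. The members and lists were chosen with earlier results of these data known. All 40 members could be named, and of each other list the first 3 measured members and those not detected on replicate 1 or 4. Replicates are biological, per the series' design text, and the number of arrays limits the precision.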

Additional observations from a re-analysis of the deposited data

Results flagged for a closer look

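Over the 34 mitotic genes, 2 had an array whose gap to the nearest other array was past Dixon's 95% critical value when divided by the range of the 4 arrays, and chance flags about 1 in 20 groups of 4. This is 5.88% of the mitotic genes, beside 5.59% of the 6902 genes well above background on all arrays and 2.69% of all 16520 named genes. Plk1, the Polo kinase, was low on replicate 2, with a gap of 0.850 of its range, and 96.8% of all genes with a mean level above 0 were lower on replicate 2 than on replicate 1. Kif23, a motor of the central spindle, was high on replicate 2, with a gap of 0.830 of its range.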

How the results depend on the processing

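No paired analysis was possible because the arrays form a single group. Detection of the mitotic genes on replicates 1 and 4 stayed at 34 of 34 under each alternative run. On all 4 arrays it lay between 32 and 34, except that 17 passed the threshold of the dimmest spike-in probe by 3 SD. Leaving out a replicate cannot lower either count. On replicates 1 and 4 the spike-in threshold was looser than the flag, at 52.3% of all genes against 45.9%. Several alternatives thus could not have lowered the 34 of 34. The other cell cycle lists gave 86 to 95 of 100, with 95 under the other scanner flag. The median SD of 0.38 became 1.73 with scaling on all probes, 0.58 with quantile normalization and 0.77 when the 3 brightest spike-in probes set the scale, and lay between 0.25 and 0.44 when each replicate was left out, with 0.25 without replicate 2. The cause was not tested. The median of replicate 1 minus replicate 4 over the mitotic genes, before centring, was -0.10 and became 0.52 with spike-in scaling, where the median of all genes was 0.59. The spread of all genes moved as well, from 0.43 to 1.55, 0.86 and 0.80 under the same 3 scalings. The variance test, which could call only a very large excess of spread, gave 0 mitotic genes under each alternative. Relative to all genes, the sign of replicate 1 minus replicate 4 changed for 5 of 34 genes with normexp and for 1 with the mean of all probes and with outlier spots kept. All 34 levels moved by more than their SD with scaling on all probes (by 2.83) and on spike-in probes (by -3.04), which shift every gene alike, as did 11 with quantile normalization, 11 with the mean of all probes and 3 with normexp. With the flag required on replicates 1 and 4 alone, chosen after seeing the data, 2 genes and not 0 were higher on replicate 1 by over 0.5, and 2 were lower as before. Normexp used the median spot signal. Naming probes by symbol was not run, since the scanner files used here have no such column. Signals close to background limit Cenpf on replicates 1 and 4, and Ndc80 and Espl1 missed the flag on replicate 3.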

Other observations

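CCAAT boxes of the mitotic promoters were also compared for their spacing, a question raised by the printed stretches. A pair of matches with first bases 31 to 33 bases apart was found in Ccnb1, Ccnb2, Cdk1 and Nek2, which is 4 of 33 promoters (12.1%), against 1.01% of 27457 genes and 1.86% of 5805 detected genes. Among promoters with at least 2 matches the shares were 23.5% of 17 mitotic genes, 8.28% of 3347 genes and 11.9% of 907 detected genes. The spacing was chosen after the matches had been seen, so the counts are a description.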
